A study of Mus musculus with 16 samples.

Results

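The genes described here are 179 long intergenic noncoding RNA (lincRNA) genes expressed in the mouse retina. They are all genes that the deposited expression table calls lincRNA and that averaged at least 2 FPKM (fragments per kilobase of transcript and library depth) over 10 uninjected retina libraries. The table lists 5559 lincRNA genes among 54532 genes, so 3.22% of its lincRNA genes reached that level, against 47.05% of its protein-coding genes. The members were thus chosen by their measured FPKM, and their level is given below as a description. Miat at 2.06, Gm3764 at 2.03 and Gm7598 at 2.001 FPKM lay just inside the limit, and Gm20735 at 1.98, Ino80dos at 1.95 and AC159282.1 at 1.87 FPKM just outside it. The word intergenic did not hold for all of them: 24 of the 179 overlapped the span of a protein-coding gene, among them Otx2os1 over Otx2 and Raxos1 over Rax. Overlap was read from whole gene spans, introns included, and overlap of exons was not checked. Whether reads were counted by strand is not given in the sources used here. For such pairs the reads of the lincRNA and of the coding gene may therefore be mixed.

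Bulk RNA of C57BL6/J mouse retinas was sequenced in 5 groups, in a study of fatty acids and aging of vision. Retinas without injection came from 4 wildtype libraries of 18-month-old mice, 3 libraries of Elovl2 mutants aged 12 months and 3 wildtype libraries of that same younger age. The mutation is written C234W in the study's design and C34W in the sample labels. It lies in Elovl2, an enzyme that lengthens very long polyunsaturated fatty acids. The injected groups were retinas of 18-month-old mice taken 5 days after 0.36 nmol of the fatty acid 24:5 was injected into one eye (n = 3), and retinas of fellow eyes that received vehicle (n = 3). Which injected retinas are from the same animal is not in the labels, and neither is whether each uninjected library had an animal of its own. The p-values therefore describe only how far these libraries spread, which may in part be technical. The uninjected libraries held 12810558 to 30519417 reads in genes, and the injected ones 22066668 to 25609242.

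LincRNAs are transcripts without a recognised protein product. Many are spliced and polyadenylated like messenger RNA, and a part of them stays in the nucleus, where they act in nuclear bodies, in X inactivation or in imprinted domains. Others serve mainly as the precursors of microRNAs or small nucleolar RNAs, which are cut out of their exons or introns. In the retina, lincRNAs have been studied in photoreceptor maturation and in the choice of cell fate.

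MicroRNA precursors were one group of known products. RefSeq placed 16 microRNA hairpins on the same strand inside 12 of the 179 genes (build GRCm38.p6). The miR-124 hairpins had no entry in the RefSeq set used, so Mir124a-1hg and Mir124-2hg are not among these 12. The share of hosts among all lincRNA genes was not counted. The mature sequences below are from RefSeq, with the seed, bases 2 to 8, in capitals. They are shown because 2 different lincRNAs carried the same microRNA and because related seeds recurred. C130071C03Rik (Mir9-2, chr13:83738814-83738885, plus strand) and Gm3764 (Mir9-1, chr3:88215598-88215686, plus strand) both hold miR-9, a neural microRNA. 6720427I07Rik holds let-7d (chr13:48536012-48536114, minus strand) and lay 7 and 357 bases from let-7f-1 and let-7a-1, so that 3 let-7 forms sharing the seed GAGGUAG lie in or beside it. Let-7 genes away from the 179 genes were not looked up. Rncr4, a transcript of maturing mouse photoreceptors, lies on the strand opposite to the sensory-organ microRNAs miR-183 and miR-96, 3156 and 3342 bases away.
mmu-miR-9-5p: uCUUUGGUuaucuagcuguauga
mmu-miR-9-3p: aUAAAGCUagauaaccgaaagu
mmu-let-7d-5p: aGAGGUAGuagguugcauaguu
mmu-let-7f-5p: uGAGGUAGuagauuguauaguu
mmu-let-7a-5p: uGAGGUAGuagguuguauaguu
mmu-miR-183-5p: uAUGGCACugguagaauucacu
mmu-miR-96-5p: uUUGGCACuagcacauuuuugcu
mmu-miR-191-5p: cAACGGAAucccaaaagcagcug
mmu-miR-425-5p: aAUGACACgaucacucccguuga

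The seeds of miR-183 and miR-96 both end in UGGCAC. The last pair lies in 4833445I07Rik. The other hosts with a hairpin in that RefSeq table were Meg3 (Mir770), Mir670hg (Mir129-2 and Mir670), Ftx (Mir421 and Mir374b), E130102H24Rik (Mir101a), Gm27028 (Mir30c-2), Snhg20 (Mir6516), Snhg10 (Mir3069) and 2900076A07Rik (Mir1839). These libraries measured the host transcripts and not the mature microRNAs.

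The hosts stood at very different levels. C130071C03Rik had 8.90, 7.13, 7.83 and 8.45 FPKM in 18-month wildtype retinas, 7.49, 6.79 and 6.86 FPKM in mutant retinas, and 8.87, 7.88 and 6.82 FPKM in 12-month wildtype retinas. Gm3764 had 2.09, 1.93, 2.26 and 1.48 FPKM in 18-month wildtype retinas, 2.92, 1.23 and 1.13 FPKM in mutant retinas, and 2.81, 3.37 and 1.10 FPKM in 12-month wildtype retinas. The miR-9 host with the higher level was thus the steadier of the pair, with a highest library 1.31 times the lowest, against 3.06 times for Gm3764. 6720427I07Rik had 5.29, 3.34, 3.96 and 3.94 FPKM in 18-month wildtype retinas, 4.12, 4.53 and 3.83 FPKM in mutant retinas, and 4.39, 3.91 and 3.23 FPKM in 12-month wildtype retinas, so its groups overlapped.

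A few genes held much of the lincRNA signal. Malat1 alone made up 10.14% of the summed mean FPKM of the 179 genes, the highest 3 made up 24.06%, the highest 10 made up 46.26% and the highest 20 made up 58.81%. Only 32 genes averaged at least 10 FPKM and 10 averaged at least 50 FPKM. The genes together took 0.679 to 0.884% of the reads in genes in 18-month wildtype libraries, 0.638 to 1.02% in mutant libraries and 0.580 to 1.10% in 12-month wildtype libraries.

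**Figure D1:**
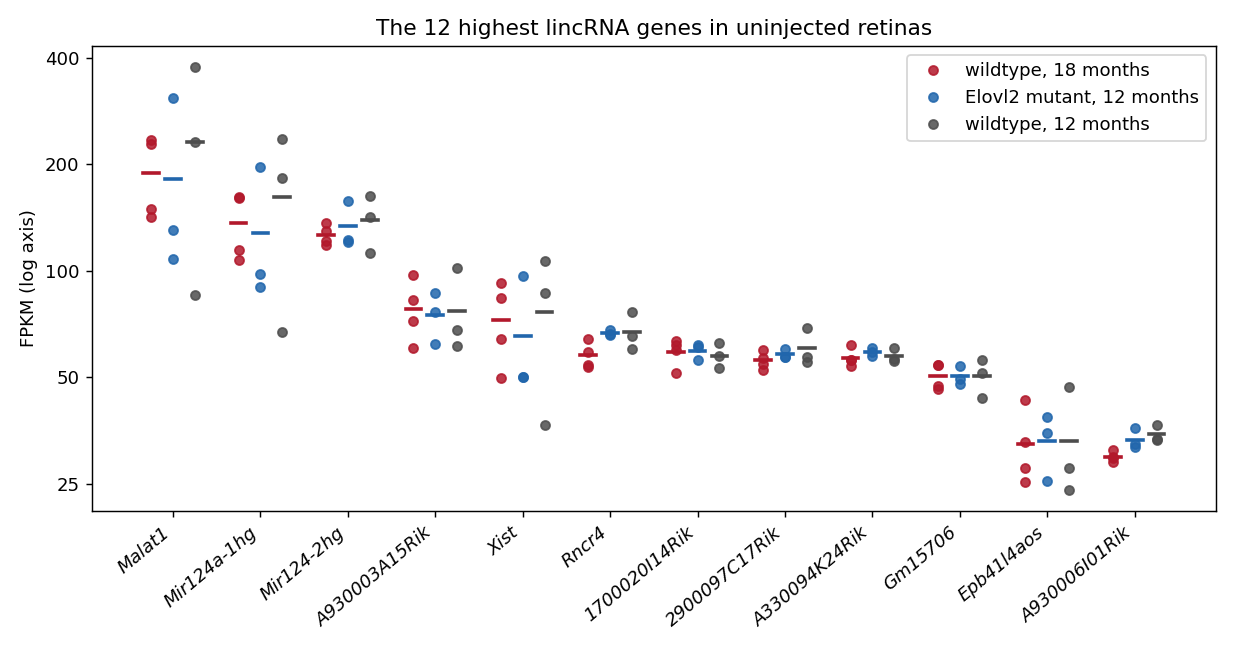
FPKM (log axis) of the 12 lincRNA genes with the highest mean, for each uninjected library of wildtype at 18 months (red, n = 4), Elovl2 mutant at 12 months (blue, n = 3) and wildtype at 12 months (grey, n = 3); points are libraries and short bars are group means. Malat1, Mir124a-1hg and Xist spread over a range of 2.91 times or more within the 10 libraries, while A330094K24Rik spread over 1.14 times.

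Malat1 (ENSMUSG00000092341, chr19:5795690-5802672, minus strand, mm10), a nuclear RNA of splicing speckles, had the highest level of all 179, with a mean of 199.6 FPKM. It had 142.2, 229.1, 234.5 and 150.0 FPKM in 18-month wildtype retinas, 307.3, 130.2 and 108.3 FPKM in mutant retinas, and 231.7, 376.8 and 85.7 FPKM in 12-month wildtype retinas. The highest and the lowest of the 10 libraries were both 12-month wildtype, so the other groups lay inside the spread of that one.

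Mir124a-1hg (chr14:64587331-64593961, plus strand), host of the neuronal microRNA miR-124 and known in mouse for a part in cone maturation, followed with a mean of 141.5 FPKM. It had 114.3, 160.8, 162.0 and 107.7 FPKM in 18-month wildtype retinas, 196.2, 90.1 and 97.7 FPKM in mutant retinas, and 182.7, 236.3 and 67.0 FPKM in 12-month wildtype retinas. Mir124-2hg (chr3:17789921-17808970, plus strand), named for a second miR-124 copy, averaged 132.6 FPKM. It had 118.2, 129.7, 137.0 and 121.8 FPKM in 18-month wildtype retinas, 157.6, 122.6 and 120.8 FPKM in mutant retinas, and 142.1, 163.2 and 112.7 FPKM in 12-month wildtype retinas. The libraries that were high for the first host were also high for the second, over a narrower range of 1.45 times against 3.53 times.

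Xist (ENSMUSG00000086503, chrX:103460366-103483254, minus strand), the RNA that coats the inactive X chromosome in female cells, averaged 71.7 FPKM. It had 49.96, 83.6, 92.5 and 64.2 FPKM in 18-month wildtype retinas, 96.5, 50.01 and 50.1 FPKM in mutant retinas, and 86.8, 106.8 and 36.7 FPKM in 12-month wildtype retinas. All 10 libraries had Xist and all were at 0 FPKM for the Y-linked genes Ddx3y, Eif2s3y, Kdm5d and Uty. The injected libraries showed the opposite. Xist had 0, 3 and 3 counts in 24:5 retinas and 1, 0 and 0 counts in vehicle retinas, with a summed level of those Y-linked genes of 348 to 360 CPM (counts scaled by library size) in 24:5 retinas and 325 to 344 CPM in vehicle retinas. The labels give no sex, but by these genes all 10 uninjected libraries read as female and the injected ones as male. Sex and injection therefore cannot be told apart between these sets. The uninjected and the injected libraries come from separate tables, so these values stand side by side and no difference between them was tested. Of the other listed genes of the X inactivation centre, Jpx and Ftx, known in mouse as activators of Xist, reached the limit, and Tsix, the antisense RNA of Xist, did not. Jpx had 1.65, 2.45, 2.53 and 2.24 FPKM in 18-month wildtype retinas, 2.78, 1.84 and 1.59 FPKM in mutant retinas, and 2.32, 2.66 and 1.20 FPKM in 12-month wildtype retinas. Ftx had 2.95, 4.10, 4.32 and 2.90 FPKM in 18-month wildtype retinas, 5.19, 2.73 and 3.14 FPKM in mutant retinas, and 4.41, 5.79 and 2.63 FPKM in 12-month wildtype retinas. Unlike Xist, both remained detected in the injected libraries, Ftx at 14.2 to 15.6 CPM in 24:5 retinas and 10.6 to 16.1 CPM in vehicle retinas.

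Meg3 (chr12:109541001-109571726, plus strand), the maternally expressed RNA of the imprinted Dlk1-Dio3 domain, averaged 19.7 FPKM. It had 13.5, 23.1, 20.6 and 15.9 FPKM in 18-month wildtype retinas, 33.4, 14.8 and 14.02 FPKM in mutant retinas, and 21.8, 29.8 and 10.3 FPKM in 12-month wildtype retinas. Its lowest library was the one lowest for Malat1, and its 2 highest were the 2 highest for Malat1, with the mutant one first here. Miat, a neural nuclear RNA studied in mouse retinal cell fate, had 1.65, 1.99, 1.85 and 1.70 FPKM in 18-month wildtype retinas, 2.96, 2.12 and 1.5 FPKM in mutant retinas, and 2.68, 2.44 and 1.68 FPKM in 12-month wildtype retinas. Neat1, the scaffold RNA of paraspeckles, averaged 0.681 FPKM and was below the limit.

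Rncr4 had 64.2, 54.1, 53.4 and 59.1 FPKM in 18-month wildtype retinas, 67.9, 66.1 and 66.4 FPKM in mutant retinas, and 65.4, 60.03 and 76.4 FPKM in 12-month wildtype retinas. Its highest library was the 12-month wildtype library in which Malat1 was lowest. 1700020I14Rik, also called Cyrano and known in mouse for the destruction of the microRNA miR-7, had 51.5, 59.9, 61.8 and 63.5 FPKM in 18-month wildtype retinas, 61.6, 61.0 and 55.9 FPKM in mutant retinas, and 53.2, 62.4 and 57.3 FPKM in 12-month wildtype retinas. A330094K24Rik had 61.6, 56.2, 53.9 and 56.0 FPKM in 18-month wildtype retinas, 57.5, 59.2 and 60.5 FPKM in mutant retinas, and 56.5, 55.6 and 60.7 FPKM in 12-month wildtype retinas. Cyrano and A330094K24Rik were steady across the 10 uninjected libraries, with highest to lowest ratios of 1.23 and 1.14.

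A930003A15Rik averaged 76.9 FPKM and ran largely against Malat1. It had 97.1, 60.6, 82.8 and 72.1 FPKM in 18-month wildtype retinas, 62.0, 76.4 and 86.6 FPKM in mutant retinas, and 68.3, 61.4 and 101.6 FPKM in 12-month wildtype retinas. Epb41l4aos, whose human counterpart hosts a small nucleolar RNA, did likewise, with 43.3, 27.8, 25.4 and 32.9 FPKM in 18-month wildtype retinas, 25.5, 34.8 and 38.8 FPKM in mutant retinas, and 27.8, 24.1 and 47.1 FPKM in 12-month wildtype retinas. For both genes the third 12-month wildtype library, the lowest for Malat1, was the highest. The remaining genes of the highest 12 were 2900097C17Rik with a range of 52.6 to 69.2 FPKM, Gm15706 with 43.8 to 55.9 FPKM and A930006I01Rik with 28.9 to 36.7 FPKM.

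**Figure D2:**
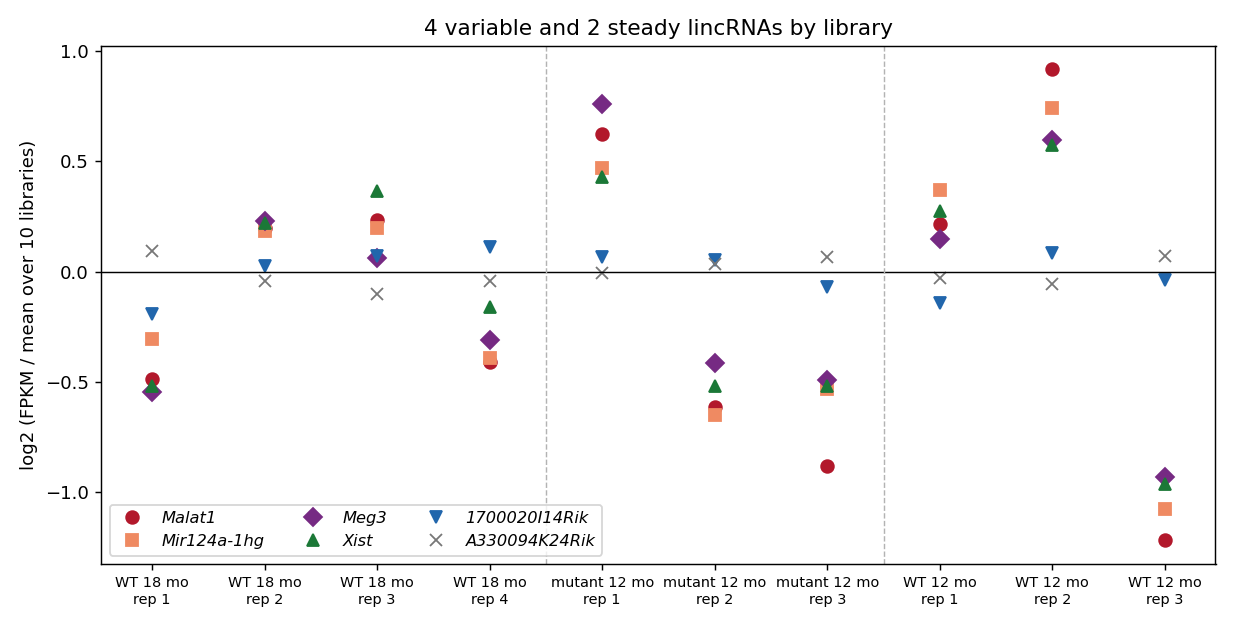
The log2 ratio of each library's FPKM to the gene's mean over the 10 uninjected libraries, for wildtype at 18 months, Elovl2 mutant at 12 months and wildtype at 12 months, from left to right. Malat1, Mir124a-1hg, Meg3 and Xist were all high in the second 12-month wildtype library and all low in the third, while 1700020I14Rik and A330094K24Rik stayed near 0.

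The order of libraries seen for Malat1 also held in part for protein-coding genes. The first principal component of the coding genes took 50.7% of their variance and scored -0.383, 0.229, 0.162 and -0.149 in 18-month wildtype libraries, 0.360, -0.180 and -0.259 in mutant libraries, and 0.143, 0.539 and -0.461 in 12-month wildtype libraries. The summed level of 12 genes for paraspeckle and splicing-body proteins was 414.3, 464.0, 468.9 and 430.7 FPKM in 18-month wildtype libraries, 476.8, 416.2 and 421.0 FPKM in mutant libraries, and 467.5, 515.6 and 406.8 FPKM in 12-month wildtype libraries. The sum of 6 pigment epithelium markers followed another order, with 160.5, 57.9, 85 and 165.8 FPKM in 18-month wildtype libraries, 94.0, 87.6 and 95.0 FPKM in mutant libraries, and 74.0, 72.5 and 110.7 FPKM in 12-month wildtype libraries. The sums of ganglion cell and Muller glia markers ran largely against Malat1. For 5 ganglion cell markers the sum was 293.4, 267.9, 238.5 and 279.7 FPKM in 18-month wildtype libraries. It was 255.3, 312.4 and 302.5 FPKM in mutant libraries, and 272.8, 228.0 and 345.0 FPKM in 12-month wildtype libraries. For 4 Muller glia markers the second 12-month wildtype library was lowest at 933.4 FPKM, and the third had 1242 FPKM. Sums of the other cell types are not given here. The part of these differences in the lincRNA levels was not tested. In bulk retina, fewer cells of a type and less RNA per cell cannot be told apart.

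Malat1, Xist and Meg3 moved together over the libraries, so their promoters are shown, from 250 bases before to 50 after the RefSeq start (GRCm38.p6). Capitals mark TATAAA or CCAAT on either strand, so that a capital TTTATA is TATAAA on the other strand.
Malat1, chr19:5802623-5802922, minus strand: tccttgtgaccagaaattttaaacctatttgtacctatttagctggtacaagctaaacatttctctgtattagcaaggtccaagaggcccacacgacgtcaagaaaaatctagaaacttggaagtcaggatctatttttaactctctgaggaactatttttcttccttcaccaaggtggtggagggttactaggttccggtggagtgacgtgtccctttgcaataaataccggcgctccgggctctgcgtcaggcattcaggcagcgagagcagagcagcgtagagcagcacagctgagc
Xist, chrX:103483184-103483483, minus strand: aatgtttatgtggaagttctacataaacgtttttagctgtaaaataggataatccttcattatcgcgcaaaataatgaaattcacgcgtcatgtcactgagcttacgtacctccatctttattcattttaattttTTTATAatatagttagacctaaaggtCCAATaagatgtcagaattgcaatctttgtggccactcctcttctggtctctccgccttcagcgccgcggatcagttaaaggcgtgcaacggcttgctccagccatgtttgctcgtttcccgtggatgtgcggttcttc
Meg3, chr12:109540746-109541045, plus strand: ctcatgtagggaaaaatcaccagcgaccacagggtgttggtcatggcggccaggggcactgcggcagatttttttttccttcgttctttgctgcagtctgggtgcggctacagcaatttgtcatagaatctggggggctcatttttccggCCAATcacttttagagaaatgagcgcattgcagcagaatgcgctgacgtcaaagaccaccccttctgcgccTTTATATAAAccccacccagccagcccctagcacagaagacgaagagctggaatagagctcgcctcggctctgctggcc

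The 3 promoters differed in these letters. Meg3 had 2 overlapping TATAAA matches, one on each strand, and 1 CCAAT, Xist had 1 of each, and Malat1 had neither. A RefSeq promoter was found for 83 of the 179 genes, and for 52 of these the RefSeq start lay within 50 bases of the deposited start. TATAAA on either strand was in 16.87% of the 83, against 13.62% of all 32851 promoters, and CCAAT in 42.17% against 37.41%. TAATCC, the letters bound by photoreceptor factors of the CRX type, was in 12 of the 83 (14.46%), against 7.06% of all promoters, and TGCTGA, part of the element bound by the rod factor NRL, in 13.25% against 19.48%. These are counts of letters in a window and were not tested. Among the 12 with TAATCC, the RefSeq start lay 1444 bases from the deposited start for Gm28876, 1111 for Gm16701 and 340 for Gm30684. Their windows did not reach the deposited start. The distance was 113 bases for Gm33195, 55 for Snhg12 and within 50 for the others.

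Other features were read from the annotation. FPKM divides reads by gene length, so the choice of genes was not independent of their length. In GENCODE mouse release M21, 178 of the 179 genes were found. A single exon was annotated for 29 of them (16.29%), against 5.49% of all lincRNA genes of the table, and their median length was 1641 bases against 1038 bases. A polyadenylation signal (AATAAA or ATTAAA) stood in the last 50 bases of a transcript for 57.3% of the genes and 40.92% of all lincRNA genes. A start within 1000 bases of a coding gene's start on the other strand was found for 27 genes (15.08%), against 4.46% of all lincRNA genes. Examples were Fam120aos beside Fam120a at 270 bases, Snhg18 beside Sema5a at 148 bases and Lhx1os beside Lhx1 at 125 bases. In mean FPKM over the 10 libraries, Lhx1os exceeded Lhx1 with 2.62 against 1.65, and Fam120aos was below Fam120a with 21.2 against 40.4.

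The lincRNA genes varied more between libraries than coding genes did. The highest of the 10 libraries was at least 2 times the lowest in 69 of the 179 genes (38.55%), against 510 of 10373 coding genes with a mean of at least 2 FPKM (4.92%). A range of 3 times or more was seen in 17 genes (9.497%), against 0.954% of coding genes. Low levels carry more counting error, so the shares were also read by level. Among genes of 2 to 5 FPKM the share at 2 times or more was 50.54% for lincRNAs (47 of 93) and 286 of 2860 for coding genes, at 5 to 10 FPKM 29.63% and 3.79%, at 10 to 50 FPKM 13.64% and 2.46%, and at 50 FPKM or more 30.0% (3 of 10: Malat1, Mir124a-1hg and Xist) and 2.63%. Among genes with a mean of at least 500 reads per library, 7 of 31 lincRNAs (22.58%) and 2.25% of 7128 coding genes reached 2 times. Without the second and the third 12-month wildtype libraries, a choice made after the values were seen, the shares over all levels were 24.58% and 2.56%. The second of them was the highest library for 56 lincRNA genes (31.28%), against 24.75% of coding genes. The third was the lowest for 67 lincRNA genes (37.43%), against 15.39% of coding genes. None of these shares was tested.

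**Figure D3:**
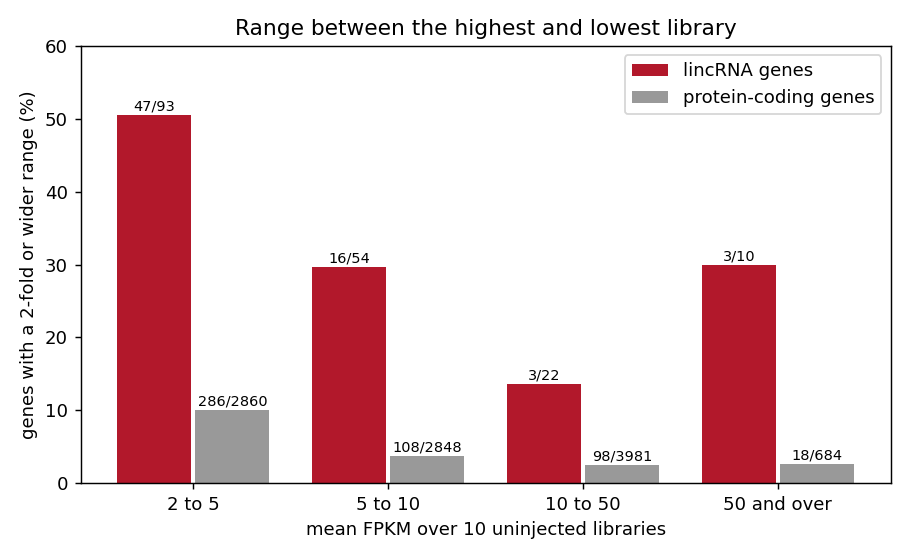
Percent of genes whose highest uninjected library was at least 2 times the lowest, by mean FPKM, for lincRNA genes (red) and protein-coding genes (grey); the fractions above the bars give genes over genes in the level class. The lincRNA share was above the coding share in each class, from 47 of 93 against 286 of 2860 genes at 2 to 5 FPKM to 30.0% against 2.63% at 50 FPKM or more.

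Gm37027 had the widest range, 8.35 times, on as few as 5 reads in a library. Gm28876 followed with 7.88 times and Gm10076 with 4.83 times. Gm10076 had 33.3, 20.4, 11.7 and 16.8 FPKM in 18-month wildtype retinas, 36.7, 11.5 and 23.4 FPKM in mutant retinas, and 12.7, 11.2 and 7.59 FPKM in 12-month wildtype retinas, so its groups overlapped. At the other end, 5031425E22Rik had 11.7, 11.6, 11.4 and 11.1 FPKM in 18-month wildtype retinas, 11.7, 10.7 and 10.6 FPKM in mutant retinas, and 11.8, 11.9 and 10.97 FPKM in 12-month wildtype retinas, a range of 1.13 times.

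Aging of the wildtype retina was addressed by 18-month against 12-month wildtype libraries. No lincRNA gene passed the test, and the widest difference was a higher level of Gm28876 at 18 months. The test was limma on log2(FPKM + 1) over 13786 genes with Benjamini-Hochberg adjustment, and a call means an adjusted p under 0.05. It called 0 of the 179 genes and 0% of all genes. An unadjusted p under 0.05 was reached by 12 of the 179 (6 higher, 6 lower), or 6.70%, against 3.65% of all genes (1.69% higher, 1.96% lower). On the recovered reads, edgeR and DESeq2 also called 0 of the 179 and each had 12 under an unadjusted p of 0.05. Groups did not overlap in 9 genes (3 higher, 6 lower), against 4.17% of all genes (1.95% higher, 2.22% lower). The log2 fold change was above 0 in 81 genes (45.3%), against 49.4% of all genes. The median log2 fold change was -0.03 over the 179 genes and 0.00 over all genes.

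Gm28876 (chr15:103096151-103102111, minus strand) had 8.22, 7.75, 14.4 and 6.61 FPKM in 18-month wildtype retinas, against 2.78, 5.27 and 1.82 FPKM in 12-month wildtype retinas. All older libraries lay above all younger ones. The means were 9.24 ± 3.49 (SD, n = 4) and 3.29 ± 1.78 FPKM (SD, n = 3), with a log2 fold change of 1.28 (SE 0.303) and, by limma, an unadjusted p of 0.00183 and an adjusted p of 0.9999. It rested on 29 to 162 reads per library. Gm30684 had 1.93, 2.24, 2.91 and 1.19 FPKM in 18-month wildtype retinas, against 4.15, 3.55 and 4.05 FPKM in 12-month wildtype retinas, a log2 fold change of -0.71 (SE 0.183) with an adjusted p of 0.9999 by limma. Its groups did not overlap either, but with a length of 600 bases its lowest libraries rested on few reads. Gm28901 had 2.29, 2.68, 2.10 and 3.27 FPKM in 18-month wildtype retinas, against 1.21, 1.29 and 1.49 FPKM in 12-month wildtype retinas, a log2 fold change of 0.61 (SE 0.200). AC124739.2 had 3.54, 3.65, 4.14 and 3.20 FPKM in 18-month wildtype retinas, against 1.44, 3.13 and 2.58 FPKM in 12-month wildtype retinas, a log2 fold change of 0.48 (SE 0.158). Older libraries lay above younger ones for both genes, and neither passed the test. With a length of 474 bases, Gm28901 rested on few reads in the lowest libraries.

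The abundant lincRNAs gave no call with age. The log2 fold change of 18-month over 12-month wildtype was -0.09 (SE 0.496) for Malat1, -0.09 (SE 0.417) for Mir124a-1hg, 0.01 (SE 0.377) for Xist and -0.08 (SE 0.376) for Meg3. Their errors were several times the differences, and each of these directions turned when 1 library was left out. Without the second 12-month wildtype library the value for Malat1 was 0.38, and without the third it was -0.68.

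The effect of the Elovl2 mutation was addressed at 12 months. Limma called 0 of the 179 genes and 0% of all genes. An unadjusted p under 0.05 was reached by 8 genes (4 higher, 4 lower), or 4.47%, against 2.19% of all genes (1.08% higher, 1.11% lower). On the recovered reads, edgeR and DESeq2 also called 0 and each had 10 under that unadjusted p. Groups did not overlap in 9 genes (4 higher, 5 lower), against 5.97% of all genes (3.05% higher, 2.92% lower). The log2 fold change was above 0 in 78 genes (43.6%), against 47.7% of all genes. The median log2 fold change was -0.04 over the 179 genes and -0.01 over all genes. The same 12-month wildtype libraries served both this comparison and the one with age, so the 2 results are not independent.

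Gm46430 (chr13:74579358-74617945, minus strand) had 1.70, 1.85 and 1.78 FPKM in mutant retinas, against 2.50, 2.30 and 2.56 FPKM in 12-month wildtype retinas. Every mutant library was below every wildtype one, and the log2 fold change was -0.31 (SE 0.0764), with an unadjusted p of 0.00214 and an adjusted p of 0.9998 by limma. Gm28901 had 2.12, 2.67 and 4.95 FPKM in mutant retinas, against 1.21, 1.29 and 1.49 FPKM in 12-month wildtype retinas, a log2 fold change of 0.81 (SE 0.213). It thus stood above the 12-month wildtype libraries in both comparisons that use them, on few reads in the lowest of these libraries. Gm44698 had 4.32, 5.54 and 4.62 FPKM in mutant retinas, against 8.93, 8.46 and 5.52 FPKM in 12-month wildtype retinas, a log2 fold change of -0.55 (SE 0.180) with overlapping groups. AC158605.1 had 6.22, 5.16 and 6.11 FPKM in mutant retinas, against 4.07, 5.19 and 4.10 FPKM in 12-month wildtype retinas, a log2 fold change of 0.33 (SE 0.115), also with overlap. Malat1 had a log2 fold change of -0.26 (SE 0.530), Mir124a-1hg -0.25 (SE 0.446), Xist -0.16 (SE 0.403) and Meg3 0.01 (SE 0.402), none of them called.

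Wildtype at 18 months was also set against the mutant at 12 months, groups that differ in both age and genotype. Limma called 0 of the 179 genes and 0% of all genes. An unadjusted p under 0.05 was reached by 6 genes (2 higher, 4 lower), or 3.35%, against 2.14% of all genes (1.04% higher, 1.1% lower). On the recovered reads 0 were called, with 5 under that unadjusted p by edgeR and 3 by DESeq2. Groups did not overlap in 9 genes (2 higher, 7 lower), against 4.47% of all genes (2.1% higher, 2.37% lower). The log2 fold change was above 0 in 96 genes (53.6%), against 53.2% of all genes. Gm26709 had 1.89, 3.19, 2.11 and 2.25 FPKM in 18-month wildtype retinas, against 3.30, 3.56 and 3.91 FPKM in mutant retinas, a log2 fold change of -0.46 (SE 0.144) with an adjusted p of 1 by limma. Gm27032 had 6.03, 5.01, 5.75 and 5.13 FPKM in 18-month wildtype retinas, against 8.70, 6.60 and 6.81 FPKM in mutant retinas, a log2 fold change of -0.36 (SE 0.115). Both were without overlap between the groups. Gm28876 was 9.24 ± 3.49 FPKM in 18-month wildtype retinas (SD, n = 4) and 4.25 ± 1.21 FPKM in mutant retinas (SD, n = 3), a log2 fold change of 0.93 (SE 0.303). Mir670hg, host of miR-129 and miR-670, had 7.29, 5.50, 6.10 and 6.44 FPKM in 18-month wildtype retinas, against 6.57, 7.999 and 8.95 FPKM in mutant retinas, a log2 fold change of -0.27 (SE 0.112) with overlap. The abundant genes gave log2 fold changes of 0.17 (SE 0.496) for Malat1, 0.16 (SE 0.417) for Mir124a-1hg, 0.18 (SE 0.377) for Xist and -0.09 (SE 0.376) for Meg3, none of them called.

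**Figure D4:**
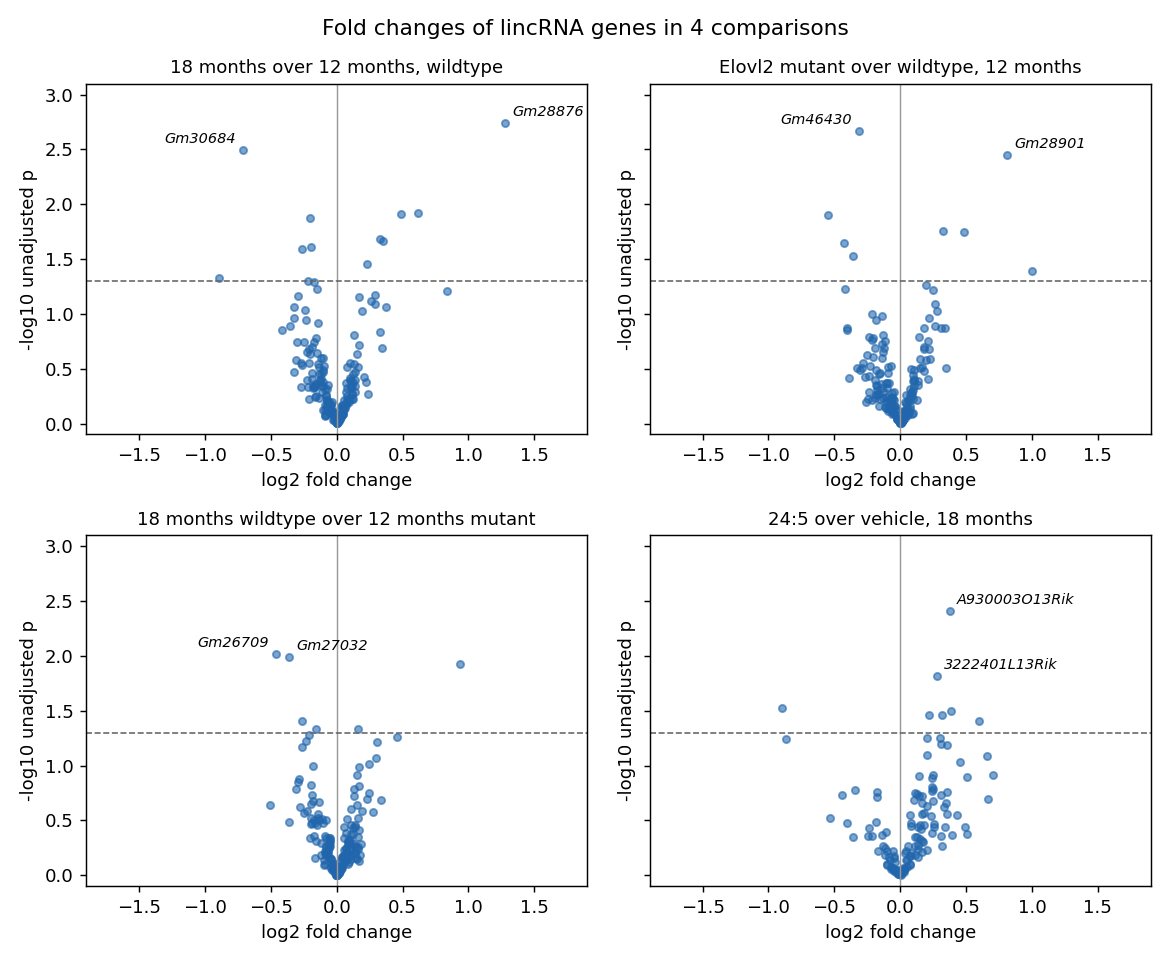
The log2 fold change and the -log10 unadjusted p of each lincRNA gene tested, in 4 comparisons: 179 genes in each of the uninjected ones (limma on FPKM) and 133 in 24:5 over vehicle (edgeR on counts). The dashed line marks an unadjusted p of 0.05 and names mark the 2 smallest p-values; no gene passed after adjustment over all genes.

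The response to 24:5 was addressed with raw counts of the injected retinas. Of the 179 genes, 146 were found by identifier in that count table, 33 were not, and 133 passed the filter on low counts. EdgeR's quasi-likelihood test called 0 of the 133, against 0.0115% of all 17466 genes. It took the retinas as independent, although the vehicle retinas were fellow eyes whose animals the labels do not match. An unadjusted p under 0.05 was reached by 7 genes (6 higher, 1 lower), or 5.26%, against 6.61% of all genes (1.44% higher, 5.16% lower). DESeq2 also called 0, with 5 genes under that unadjusted p. Groups did not overlap in 13 genes (10 higher, 3 lower), against 11.6% of all genes (4.82% higher, 6.77% lower). The log2 fold change was above 0 in 90 of the 133 genes (67.7%), against 50.8% of all genes, with a median of 0.08 against 0.00. Marker levels of several cell types differed between the groups, but the sums of rod, cone and lens markers overlapped. Among 6 rod markers 5 were higher in 24:5 than in vehicle retinas, with a median log2 fold change of 0.20, as were 4 of 5 cone markers (median 0.20) and 5 of 5 ganglion cell markers (median 0.14), and none of these genes passed the test. The ganglion cell sum was 846.1, 740.8 and 810.2 CPM in 24:5 retinas, against 738.7, 694.6 and 654.5 CPM in vehicle retinas, without overlap. The sum of 8 microglia and macrophage markers was 138.8, 105.8 and 72.9 CPM in 24:5 retinas, against 300.4, 274.0 and 180.1 CPM in vehicle retinas, without overlap. The sum of 8 lens markers was 685.2, 128.8 and 56.3 CPM in 24:5 retinas, against 1699, 1845 and 129.6 CPM in vehicle retinas. The sum of 4 endothelium markers was 62.5 to 72.7 CPM in 24:5 retinas and 92.5 to 112.9 CPM in vehicle retinas, also without overlap. None of the microglia and macrophage, lens or endothelium markers passed by edgeR. Median log2 fold changes of other marker lists were 0.24 for pigment epithelium, 0.15 for Muller glia and 0.14 for amacrine and horizontal cells. They were -0.02 for bipolar cells, -0.155 for blood and -0.20 for fibroblasts. The part of these cells in the lincRNA values was not tested.

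A930003O13Rik (chr5:22738910-22746907, minus strand) had 25.4, 29.2 and 25.8 CPM in 24:5 retinas, against 20.1, 21.8 and 20.1 CPM in vehicle retinas. The groups did not overlap, with means of 26.8 ± 2.12 and 20.6 ± 0.965 CPM (SD, n = 3 each), a log2 fold change of 0.38 (SE 0.0933) and an adjusted p of 0.329 by edgeR. 3222401L13Rik had 43.5, 43.8 and 37.6 CPM in 24:5 retinas, against 32.9, 36.8 and 33.3 CPM in vehicle retinas, a log2 fold change of 0.28 (SE 0.0898) and an adjusted p of 0.497 by edgeR. Epb41l4aos had 9.15, 8.42 and 8.68 CPM in 24:5 retinas, against 6.41, 7.70 and 5.99 CPM in vehicle retinas, a log2 fold change of 0.38 (SE 0.147). All 3 genes were higher in each 24:5 library than in each vehicle library. Gm44899 was the one gene with an unadjusted p under 0.05 and a lower level, with 0.915, 0.508 and 0.491 CPM in 24:5 retinas, against 1.27, 1.26 and 1.07 CPM in vehicle retinas and a log2 fold change of -0.90 (SE 0.339). Neither it nor Epb41l4aos passed the test, with adjusted p of 0.653 and 0.667 by edgeR.

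**Figure D5:**
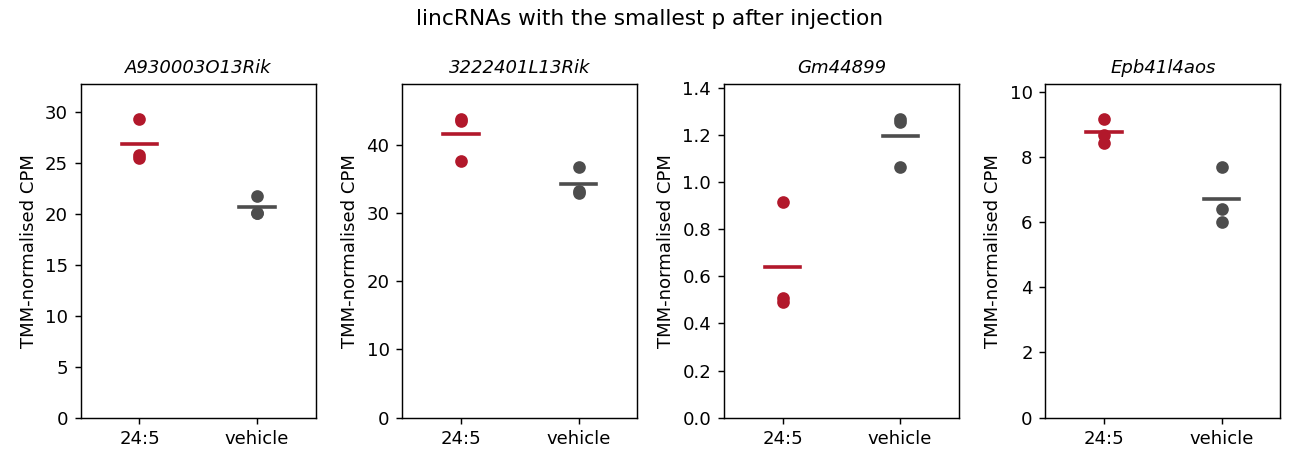
TMM-normalised CPM of the 4 lincRNA genes with the smallest p, in 24:5 retinas (red, n = 3) and vehicle retinas (grey, n = 3) at 18 months; points are libraries and short bars are means. A930003O13Rik, 3222401L13Rik and Epb41l4aos were higher and Gm44899 was lower in every 24:5 library than in every vehicle library, with adjusted p of 0.329 to 0.667.

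Malat1 had 5513, 6677 and 6132 CPM in 24:5 retinas, against 6015, 6243 and 5306 CPM in vehicle retinas, a log2 fold change of 0.06 (SE 0.0959). Mir124a-1hg had 303.9, 375.0 and 327.5 CPM in 24:5 retinas, against 284.1, 284.4 and 307.4 CPM in vehicle retinas, a log2 fold change of 0.20 (SE 0.0895). Meg3 had 234.8, 263.0 and 286.2 CPM in 24:5 retinas, against 258.6, 266.4 and 188.5 CPM in vehicle retinas, a log2 fold change of 0.14 (SE 0.141). None of the 3 was called, and the groups of each overlapped. The first principal component of the coding genes in these same libraries scored 0.242, -0.336 and -0.580 in 24:5 retinas. It scored 0.503, 0.420 and -0.249 in vehicle retinas. The component was not independent of the groups compared, so a model that holds it is not a cleaner test of 24:5. With this component in the model, 2 genes were called. Mir124-2hg then had a log2 fold change of 0.48 with an adjusted p of 0.0277, and Gm15706 one of 0.49 with an adjusted p of 0.0443, both by edgeR. Without that term Mir124-2hg had 684.1, 468.8 and 400.9 CPM in 24:5 retinas, against 505.8, 566.3 and 362.3 CPM in vehicle retinas, and Gm15706 had 29.4, 23.5 and 20.3 CPM in 24:5 retinas, against 25.5, 24.0 and 16.2 CPM in vehicle retinas. The groups overlapped for both genes in these values.

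Lists of known noncoding RNAs gave no call in any of the 4 comparisons. They also hold antisense, processed and some protein-coding transcripts: 7 of the 25 small RNA hosts and 6 of the 22 retina and neural transcripts were among the 179 genes, so the counts below describe the lists and not the lincRNAs. Listed numbers are numbers of names: Cyrano and 1700020I14Rik, names of the same gene, both count among the 22. Names not found, such as Norad among the 11 nuclear RNAs, count as listed and not as tested. Of the 25 small RNA host transcripts, 18 were tested in the uninjected libraries and 0 passed by limma, with 12 higher and 6 lower at 18 than at 12 months in wildtype, and 8 higher and 10 lower in mutant than in wildtype. In the injected libraries 21 were tested and 0 passed by edgeR, with 17 higher and 4 lower in 24:5 than in vehicle and a median log2 fold change of 0.11. Of the 22 retina and neural transcripts, 12 were tested in the uninjected libraries and 0 passed, with 4 higher and 8 lower at 18 months, and 16 were tested in the injected libraries and 0 passed, with 11 higher and 5 lower. Of 11 nuclear RNAs, 6 were tested with age and 0 passed, and 9 with 24:5 and 0 passed. For X inactivation, 3 genes were tested in the uninjected libraries and 2 in the injected ones, for the Dlk1-Dio3 domain 2 and 4, and 0 passed in each. The 12 paraspeckle and splicing-body protein genes were all tested and 0 passed, with 3 higher and 9 lower at 18 months. The host genes Snhg6, Snhg10, Snhg12, Snhg18 and Snhg20 averaged 10.7, 7.04, 8.23, 4.42 and 13.02 FPKM over the uninjected libraries, and in each the highest library was under 2 times the lowest. Snhg12, a small nucleolar RNA host, had 33.5, 36.6 and 43.3 CPM in 24:5 retinas, against 26.7, 30.2 and 34.0 CPM in vehicle retinas, with overlap.

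The uninjected and injected libraries differed in which lincRNAs they held. Of the 146 genes found in both tables, 23 averaged under 1 CPM in the injected libraries. Besides Xist, 4930516B21Rik averaged 11.7 FPKM in uninjected libraries, and had 1, 1 and 0 counts in 24:5 retinas and 0 counts in each vehicle retina. C130083M11Rik averaged 3.78 FPKM and had 0 counts in all 6 injected libraries. In the other direction, Gm26917 (chr17:39843013-39846341, plus strand) averaged 7.32 FPKM in uninjected libraries, and had 1641, 1497 and 1561 CPM in 24:5 retinas, against 1621, 1414 and 1846 CPM in vehicle retinas. Per kilobase it was second among the 146 genes found in the count table at 479.7 CPM, after Malat1 at 856.5 CPM. The GC content of its longest annotated transcript was 69.12%. Whether its reads came from a lincRNA or from another RNA was not tested. Other lincRNAs of the injected libraries were not ranked. The structural RNAs Rn7sk, Rpph1 and Rmrp took 8.54 to 13.4% of the counts in injected libraries and at most 0.0081% of the reads in uninjected ones. These tables were made separately, from retinas that also differed in sex as read from Xist and the Y-linked genes. No difference between the tables was tested.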

How the data were processed

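RNA of 16 bulk retina libraries was analysed. The authors deposited FPKM values for the 10 uninjected libraries and raw counts per gene for the 6 injected ones. HISAT2 2.2.1, featureCounts 2.0.6, DESeq2 1.42.0 and the build mm10 are named per the submitters' processing notes. For the annotation release and the strand setting, the sources used here give nothing. The FPKM values came out as whole reads (100.0% of values within 0.02 of a whole number), which gave the depth per library and served as alternative count tests. The depth limits low genes most, and counts of reads without molecular identifiers are not independent molecules.

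Uninjected groups were compared in 1 limma 3.58.1 fit on log2(FPKM + 1) over genes with a mean of at least 1 FPKM, so fold changes of low genes are understated. Injected groups were compared with edgeR 4.0.16 (quasi-likelihood, TMM, filterByExpr), in R 4.3.3. P-values were Benjamini-Hochberg adjusted over all genes tested, and the threshold was 0.05. The steps were tested on simulated counts that varied independently between libraries. That setting lacks the shared differences between libraries seen here, so it does not give the error rates of these data. The members and lists were chosen with earlier results of these data known. Genes named are the 12 highest, the 4 smallest p-values of each comparison, every gene called, those of the 179 on lists of known noncoding RNAs and those beside the limit of 2 FPKM; other genes named were chosen after their values were seen. Libraries of a group differed by more than sampling noise (chi-square per degree of freedom 3.06 to 42.8). Alternatives were other scalings, filters, pseudocounts, tools, a covariate, a replicate block and leaving out each library. The neighbour of 1 lincRNA gene is not reported here.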

Additional observations from a re-analysis of the deposited data

How the results depend on the processing

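No lincRNA gene was called in a comparison of uninjected groups under any alternative run. In 24:5 over vehicle, 2 were called with the first principal component of coding genes as a covariate, where the median log2 fold change of the lincRNAs was 0.169 against 0.08, and 0 under every other alternative; the cause was not tested. Over all genes the counts of calls moved more. With no filter on low values they were 4 with age, 4 with genotype and 1 for 18-month wildtype over mutant, against 0 in each. Recovered reads gave 1 with edgeR and 9 with DESeq2 for age, and 11 with DESeq2 for 18-month wildtype over mutant, which gave 2 when only those groups were fitted. The covariate gave 4 with age, 1 with genotype, 1 for 18-month wildtype over mutant and 198 for 24:5. For 24:5, against 2 calls, DESeq2 gave 245, no filter on low counts 85, and leaving out 1 library 0 to 105 (105 without the third vehicle library).

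Of the recomputed log2 fold changes (the 4 smallest p-values of each comparison, Malat1, Mir124a-1hg, Xist and Meg3), 404 kept their direction and 32 reversed, all 32 for Malat1, Mir124a-1hg, Xist or Meg3. With age, Xist was -0.067 with edgeR and -0.061 with DESeq2 on recovered reads, and with the covariate Malat1 was 0.127, Mir124a-1hg 0.085 and Meg3 0.085. Leaving out 1 library gave, with age, -0.68 to 0.381 for Malat1, -0.631 to 0.271 for Mir124a-1hg, -0.443 to 0.315 for Xist and -0.489 to 0.233 for Meg3; with genotype, -0.853 to 0.209, -0.786 to 0.115, -0.619 to 0.138 and -0.396 to 0.325 for the same genes in that order; for 18-month wildtype over mutant, -0.121 to 0.627 for Malat1, -0.05 to 0.508 for Mir124a-1hg and -0.304 to 0.295 for Meg3; and for 24:5, -0.01 to 0.126 for Malat1 and 0.000 to 0.224 for Meg3.

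Replicate numbers were not taken as pairs, since the labels do not say which retinas share an animal. The vehicle retinas were fellow eyes, so any pairing of eyes was left out of the main model for 24:5. Same-numbered libraries correlated in their deviations at -0.087, 0.383 and -0.317 with age, and at 0.178, -0.425 and 0.514 with genotype. They correlated at -0.519, -0.187 and -0.296 for 18-month wildtype over mutant, and at 0.398, -0.203 and 0.422 for 24:5. Not every library correlated best with its own number. Deviations from a group mean are not independent of each other, so these correlations cannot decide whether retinas were paired. With the replicate block 0 lincRNA genes were called in any comparison, all genes gave 0, 0, 0 and 88 calls in that order of comparisons, and with age Malat1 was 0.008 and Mir124a-1hg 0.012. A limit of 1 FPKM would give 303 genes and one of 4 FPKM 107. Leaving out the second and the third 12-month wildtype libraries gave 24.58% of genes with a range of 2 times, against 38.55%.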
